A study of Mus musculus with 17 samples.

Results

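Expression of 10 genes of the lung endothelium was described in mouse lungs given a single focal dose of radiation. The genes were Gpihbp1, Aplnr, Plvap and Tmem100, which mark general capillary cells or are strong in lung capillaries, and Cd93, Ptprb, Tek, Cdh5, Cldn5 and Pecam1, which most blood endothelial cells express. They were taken by symbol from the 45777 genes of the table of read counts, and all 10 were among the 22052 genes with enough counts to be tested. The animals were wild-type male C57BL/6 mice that were acclimatised for a week from 6 weeks of age. One group at each time received no radiation, and the other groups received 65 Gy or 75 Gy to the left lung in 1 fraction; lungs were collected after 2 or 6 weeks. There were 3 libraries each of 0 Gy, 65 Gy and 75 Gy at 2 weeks, 3 each of 0 Gy and 75 Gy at 6 weeks, and 2 of 65 Gy at 6 weeks. The paper lists 3 replicates of 65 Gy at 6 weeks and reports fewer reads and the lowest mapping ratio for replicate 2. The labels do not say which replicate is missing here. RNA of irradiated animals came from the lesion, per the study's methods, so the irradiated libraries stand for the damaged region and not for the whole lung. Nothing in the labels says that the libraries of a group came from separate animals, so the p-values measure only the spread between these samples, which may be technical.

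The alveolar wall holds a dense net of capillaries built from general capillary cells, which can divide and repair the net, and aerocytes, which are specialised for gas exchange. Endothelial cells are held together by VE-cadherin (Cdh5), claudin-5 (Cldn5) and PECAM-1 (Pecam1), and their quiescence depends on the angiopoietin receptor TIE2 (Tek), which the phosphatase VE-PTP (Ptprb) restrains. The endothelium is a known early target of high radiation doses in the lung.

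Libraries held between 46764569 and 66797879 counts, with a median of 57608149, and Gpihbp1 and Aplnr, the least counted of the 10 genes, had between 1312 and 8505 counts. Levels are given as CPM, a gene's counts divided by the total of its library, corrected by TMM factors, on the standard scale of this unit. One library, 3134 of 75 Gy at 2 weeks, was the lowest of its group for 10 of 10 genes and the lowest of all 17 libraries for 7 of them. The log2 fold changes of the 10 genes after 75 Gy at 2 weeks are given with and without it, and those of most other genes only with it. In bulk tissue, fewer endothelial cells and less RNA of these genes per cell cannot be told apart, and this holds for every difference below.

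All 10 genes were lower than in the controls of the same week in each of the 4 irradiated groups. The calls below needed both an adjusted p no higher than 0.05 (edgeR quasi-likelihood test, Benjamini-Hochberg adjustment over all genes tested) and a log2 fold change of 1 or more in size. At 2 weeks after 75 Gy, 5 of 10 genes were called lower, and 8 had an adjusted p of at most 0.05; over all genes tested, 2.07% were called lower and 10.5% passed the adjusted p alone on the lower side. At 6 weeks after 75 Gy, 7 genes were called lower and 9 passed the adjusted p, against 3.13% and 18% of all genes. At 2 weeks after 65 Gy, 4 genes were called and 6 passed the adjusted p, against 0.88% and 4.29% of all genes. At 6 weeks after 65 Gy, 2 were called and 7 passed, against 0.943% and 7.01%. The genes had a median log2 fold change of -1.01 (range -1.49 to -0.50) and -1.22 (-2.04 to -0.70) after 75 Gy at 2 and 6 weeks, and of -1.03 (-1.27 to -0.34) and -0.90 (-1.39 to -0.41) after 65 Gy, while the median of all genes tested lay between -0.01 and 0.04. The 65 Gy and 75 Gy groups of a week were compared with the same 3 control libraries, so their values are not independent. Without library 3134, 1 gene in place of 5 was called after 75 Gy at 2 weeks, 8 still passed the adjusted p, and the median was -0.76. With the 2 groups of that comparison fitted alone, the number passing the adjusted p was 1 in place of 8, at a median of -1.01.

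**Figure D1:**
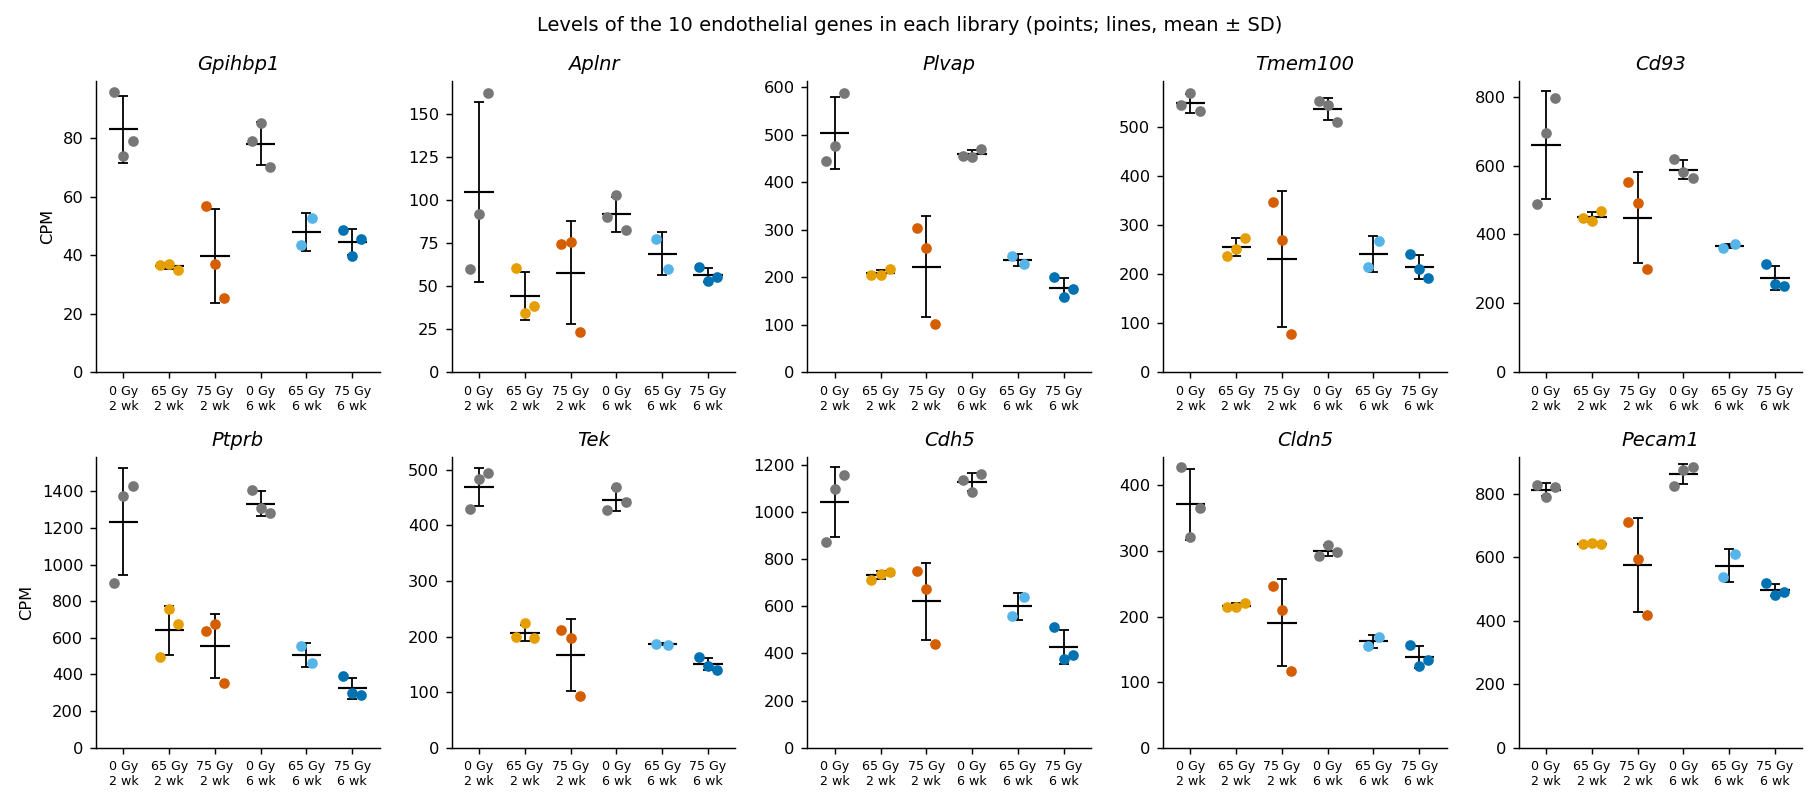
Level of each of the 10 genes (y axis, CPM) in the 17 libraries by dose and week (x axis); each point is a library, with the mean and SD of its group. The control libraries lie above all irradiated libraries of their week for 10 of 10 genes at 6 weeks. At 2 weeks they lie above those of 65 Gy for 9 of 10 genes and above those of 75 Gy for 8 of 10. These counts have no background to be read against. How many of all genes tested lie apart in the same way was not counted, here or for the groups described as apart below. One library of 75 Gy at 2 weeks lies below its group in each panel.

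The receptor Tek and the phosphatase Ptprb had the most negative fold changes of the 10 genes at 6 weeks. Tek encodes TIE2, the receptor of the angiopoietins. Its level was 429.8, 483 and 494 CPM in the controls of 2 weeks, 199, 224 and 198 CPM after 65 Gy, and 211, 197 and 92.9 CPM after 75 Gy. At 6 weeks it was 428, 469 and 442 CPM in the controls, 187 and 185 CPM after 65 Gy, and 163, 148 and 141 CPM after 75 Gy. The groups did not overlap at either time; the highest irradiated library, at 224 CPM, was far below the lowest control. Tek was called lower in each comparison, with log2 fold changes of -1.18 (SE 0.21, adjusted p = 0.00204) and -1.49 (SE 0.21, adjusted p = 0.000226) for 65 and 75 Gy at 2 weeks, and of -1.26 (SE 0.24, adjusted p = 0.00331) and -1.57 (SE 0.21, adjusted p = 8.44e-05) at 6 weeks. It was the 1 gene still called at 2 weeks after 75 Gy without library 3134, with a log2 fold change of -1.20.

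The promoters of Tek and Cldn5 were the only 2 of the 10 in the table of promoter sequences used here (RefSeq, GRCm38.p6). They are shown because most of the 10 genes were lower together and because ETS factors, which bind a GGAA core, are known drivers of endothelial genes. Each run spans 250 bases before to 50 bases after the start site on the plus strand, and capitals mark matches to either of the ETS words searched, which were CCGGAA in the first case and in the second case CAGGAA, or to the reverse complement of either. Tek is at chr4:94739039-94739338 and Cldn5 at chr16:18776597-18776896.
Tek: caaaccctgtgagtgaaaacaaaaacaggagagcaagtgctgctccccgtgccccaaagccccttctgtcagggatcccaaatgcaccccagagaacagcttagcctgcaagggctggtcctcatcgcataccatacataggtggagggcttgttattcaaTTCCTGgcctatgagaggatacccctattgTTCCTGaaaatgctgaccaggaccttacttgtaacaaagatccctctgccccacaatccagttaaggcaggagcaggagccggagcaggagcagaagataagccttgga
Cldn5: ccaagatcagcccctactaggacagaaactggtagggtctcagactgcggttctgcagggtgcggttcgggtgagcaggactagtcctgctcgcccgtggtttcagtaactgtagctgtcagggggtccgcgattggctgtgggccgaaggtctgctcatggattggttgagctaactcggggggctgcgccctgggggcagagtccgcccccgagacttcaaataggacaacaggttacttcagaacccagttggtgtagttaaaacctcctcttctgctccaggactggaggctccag
Tek held 2 matches, both the reverse complement of CAGGAA (printed TTCCTG). They start 89 and 59 bases before the start site used for this run. RefSeq gene coordinates start Tek at base 94739086 of chromosome 4, nearer the beginning of the run, so both matches lie after that start. CCGGAA or its reverse was found in 14.9% of 32851 promoters of this length and CAGGAA or its reverse in 30.6%, and 11.9% held at least as many ETS matches as Tek. The run of Cldn5 held none of these letters, which says nothing about the factors that act there. Of the other words searched on both strands, AGATAA, the word for GATA factors, was in 11.2% of promoters. It was in Tek at 37 bases after the start site used for the run. ACAATG, the word for SOX factors, was in 12.6% and in neither of these runs.

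Ptprb encodes VE-PTP, the endothelial phosphatase that acts on TIE2 and on the VE-cadherin complex. It was at 897, 1374 and 1428 CPM in the controls of 2 weeks, 494, 755 and 675 CPM after 65 Gy, and 636, 678 and 356 CPM after 75 Gy. After 6 weeks it was at 1408, 1308 and 1280.4 CPM in the controls, 553 and 462 CPM after 65 Gy, and 391, 297 and 287 CPM after 75 Gy. The groups were apart at both times, and at 6 weeks the 3 libraries of 75 Gy were also below both libraries of 65 Gy. The log2 fold change of -2.04 (SE 0.24, adjusted p = 3.59e-05) after 75 Gy at 6 weeks left Ptprb at 24.4% of the control level, the lowest remaining share of any of the 10 genes in any comparison. It was called at 6 weeks after 65 Gy (-1.39, SE 0.27, adjusted p = 0.00406) and at 2 weeks after 75 Gy (-1.15, SE 0.23, adjusted p = 0.0029; -0.91 without library 3134), and it passed the adjusted p but not the fold limit at 2 weeks after 65 Gy (-0.94, SE 0.23, adjusted p = 0.0182). The adjusted p after 65 Gy rested on single libraries: at 2 weeks it was 0.0513 to 0.0899 without 3127, 3128, 3129 or 3131, and at 6 weeks 0.0578 without 3140.

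**Figure D2:**
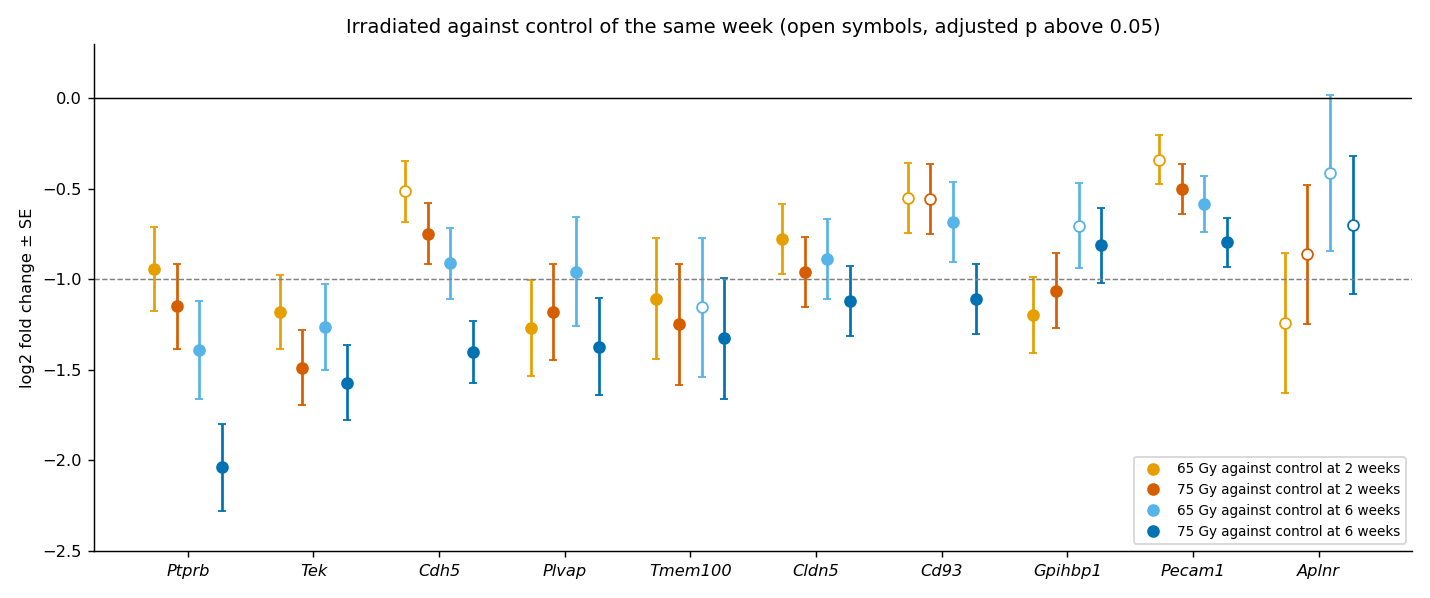
Log2 fold change with its standard error (y axis) of each gene (x axis, ordered by the value after 75 Gy at 6 weeks) in the 4 comparisons of a dose with the controls of its week; filled symbols passed an adjusted p of 0.05 and the dashed line marks the fold limit. All 40 values lie below 0, from -2.04 for Ptprb to -0.34 for Pecam1.

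Of the junction genes, Cdh5 encodes VE-cadherin, the adhesion molecule of endothelial adherens junctions. Its level was 873, 1099 and 1156 CPM in the controls of 2 weeks, 712, 736 and 744 CPM after 65 Gy, and 750.4, 672 and 439 CPM after 75 Gy. After 6 weeks the values were 1136, 1086 and 1161 CPM in the controls, 559 and 639 CPM after 65 Gy, and 510.1, 376 and 394 CPM after 75 Gy. The groups did not overlap, and at 2 weeks the nearest irradiated library, at 750.4 CPM, was not far below the lowest control. Cdh5 was called lower after 75 Gy at 6 weeks (-1.40, SE 0.17, adjusted p = 4.88e-05). It passed the adjusted p with smaller fold changes after 65 Gy at 6 weeks (-0.91, adjusted p = 0.00686) and after 75 Gy at 2 weeks (-0.75, adjusted p = 0.00559; -0.55 without library 3134), and not after 65 Gy at 2 weeks (-0.51, SE 0.17, adjusted p = 0.0653). After 65 Gy, the adjusted p was 0.0979 at 6 weeks without library 3138, and it was 0.0385 at 2 weeks without control library 3126.

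Cldn5, the main claudin of endothelial tight junctions, was at 428, 320.5 and 365 CPM in the controls of 2 weeks, 215, 214 and 221 CPM after 65 Gy, and 246, 209 and 117 CPM after 75 Gy. At 6 weeks it was at 293, 309 and 298 CPM in the controls, 155 and 169 CPM after 65 Gy, and 156, 124 and 134 CPM after 75 Gy. All irradiated libraries were below all controls of their week. Cldn5 passed the adjusted p in each comparison, with log2 fold changes of -0.78 and -0.89 after 65 Gy and -0.96 and -1.12 after 75 Gy at 2 and 6 weeks (SE 0.19 to 0.22, adjusted p from 0.000583 to 0.0187), and reached the fold limit only after 75 Gy at 6 weeks. The value after 75 Gy at 2 weeks was -0.70 without library 3134. After 65 Gy at 2 weeks the adjusted p was 0.0563 to 0.0659 without 3126, 3129, 3130 or 3131, and at 6 weeks 0.0921 and 0.151 without 3140 and 3138. Pecam1, an adhesion molecule that platelets and some leukocytes also carry, had the smallest fold changes of the junction genes: -0.34 (adjusted p = 0.129) and -0.59 (adjusted p = 0.0208) after 65 Gy, and -0.50 (adjusted p = 0.0161; -0.32, adjusted p = 0.0291, without library 3134) and -0.80 (adjusted p = 0.000552) after 75 Gy. Its controls lay between 789 and 884 CPM over both weeks, and the irradiated libraries between 418 and 712 CPM. The groups were apart although the fold limit was not reached in any comparison. The adjusted p of Pecam1 after 65 Gy at 6 weeks was 0.0569 to 0.21 without 3136, 3137, 3138 or 3140.

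Of the capillary genes, Plvap encodes the protein of the diaphragms that close endothelial fenestrae and caveolae. Its level was 445, 477 and 589 CPM in the controls of 2 weeks, 205, 205 and 217 CPM after 65 Gy, and 303, 262 and 101 CPM after 75 Gy. By 6 weeks its level was 454, 453 and 469.5 CPM in the controls, 245 and 227 CPM after 65 Gy, and 200.0, 157 and 175 CPM after 75 Gy. The 3 libraries of 65 Gy at 2 weeks were close together, while those of 75 Gy spread over a wide range, with library 3134 the lowest. Plvap was called lower at 2 weeks after 65 Gy (-1.27, SE 0.27, adjusted p = 0.00721) and 75 Gy (-1.18, SE 0.27, adjusted p = 0.00523; -0.83 without library 3134) and at 6 weeks after 75 Gy (-1.37, SE 0.27, adjusted p = 0.00127). At 6 weeks after 65 Gy it passed the adjusted p (-0.96, SE 0.30, adjusted p = 0.045), and on leaving out any 1 of the 5 libraries the adjusted p was 0.0891 to 0.23. Plvap overlaps Gtpbp3, whose counts came to between 2.71% and 18.4% of those of Plvap, and whether the counting used strand is not given in the sources used here.

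Tmem100, a membrane protein that BMP9 and ALK1 signalling induces in endothelial cells, was at 544, 569 and 532 CPM in the controls of 2 weeks, 238, 251 and 274 CPM after 65 Gy, and 347, 269 and 77.3 CPM after 75 Gy. At the later time it was at 553, 546 and 511 CPM in the controls, 215 and 267 CPM after 65 Gy, and 239.9, 211 and 191 CPM after 75 Gy. The control libraries were near each other and far above all irradiated libraries. Its log2 fold changes were -1.11 (adjusted p = 0.0454) and -1.25 (adjusted p = 0.0146; -0.83 without library 3134) at 2 weeks after 65 and 75 Gy, and -1.15 (SE 0.38, adjusted p = 0.0558) and -1.33 (SE 0.34, adjusted p = 0.00687) at 6 weeks. Its standard errors of 0.33 to 0.38 were the largest of the 10 genes after those of Aplnr. The call after 65 Gy at 2 weeks was lost on leaving out any 1 library of that comparison. After 65 Gy at 6 weeks, Tmem100 passed both limits by DESeq2 (adjusted p = 0.0132) and with the 2 groups fitted alone (adjusted p = 0.000627).

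Gpihbp1 encodes the capillary protein that carries lipoprotein lipase to the vessel lumen. Its level was 96.0, 74.0 and 79.2 CPM in the controls of 2 weeks, 36.8, 36.9 and 35.0 CPM after 65 Gy, and 56.9, 37.0 and 25.3 CPM after 75 Gy. At the later time it was 79.0, 85.2 and 70.3 CPM in the controls, 43.4 and 52.7 CPM after 65 Gy, and 48.6, 39.6 and 45.4 CPM after 75 Gy. The groups did not overlap, and the 65 Gy libraries of 6 weeks lay above those of 2 weeks. Gpihbp1 was called lower at 2 weeks after 65 Gy (-1.20, SE 0.21, adjusted p = 0.00199) and 75 Gy (-1.06, SE 0.21, adjusted p = 0.00222; -0.82 without library 3134). At 6 weeks the values were -0.70 (SE 0.23, adjusted p = 0.0567) and -0.81 (SE 0.21, adjusted p = 0.00708). The difference between the effects of 6 and 2 weeks was 0.49 (SE 0.31, adjusted p = 0.646) for 65 Gy and 0.25 (SE 0.29, adjusted p = 0.696) for 75 Gy.

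Cd93, a C-type lectin receptor of endothelial and some myeloid cells, was at 488, 695 and 796 CPM in the controls of 2 weeks, 446, 438 and 467 CPM after 65 Gy, and 554, 493 and 300.4 CPM after 75 Gy. After 6 weeks it was at 619, 580.4 and 565 CPM in the controls, 362 and 371 CPM after 65 Gy, and 313, 257 and 249 CPM after 75 Gy. At 2 weeks the libraries of 75 Gy overlapped the controls, and at 6 weeks the groups were apart. The log2 fold changes at 2 weeks were -0.55 (adjusted p = 0.0813) and -0.56 (adjusted p = 0.0509) after 65 and 75 Gy, and those of 6 weeks were -0.68 (adjusted p = 0.0489) and -1.11 (SE 0.19, adjusted p = 0.000631). The values of 2 weeks moved either way with single libraries. After 75 Gy they were -0.33 (adjusted p = 0.177) without 3134 and -0.40 (adjusted p = 0.207) without control library 3128, against -0.72 (adjusted p = 0.0123) without control library 3126 and -0.74 (adjusted p = 0.0157) without 3132. After 65 Gy they were -0.39 (adjusted p = 0.272) without 3128 and -0.72 (adjusted p = 0.024) without 3126. After 65 Gy at 6 weeks the adjusted p was 0.0845 to 0.226 on leaving out any 1 of the 5 libraries.

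Aplnr, the receptor of apelin and a marker of general capillary cells, did not pass the adjusted p of the edgeR test with all libraries in any comparison. Its level was 60.1, 91.9 and 162 CPM in the controls of 2 weeks, 60.2, 34.3 and 38.3 CPM after 65 Gy, and 74.3, 75.4 and 23.1 CPM after 75 Gy. At 6 weeks it was 89.9, 103 and 82.4 CPM in the controls, 77.6 and 60.1 CPM after 65 Gy, and 61.1, 52.8 and 55.5 CPM after 75 Gy. At 2 weeks the control libraries spread more than for any other gene of the 10 and overlapped both doses, and at 6 weeks the groups were apart. The log2 fold changes were -1.24 (SE 0.39, adjusted p = 0.0514) and -0.86 (SE 0.38, adjusted p = 0.121) at 2 weeks after 65 and 75 Gy, and -0.41 (SE 0.43, adjusted p = 0.568) and -0.70 (SE 0.38, adjusted p = 0.167) at 6 weeks. Without control library 3128, which held 162 CPM, the values of 2 weeks were -0.78 and -0.40, and without 3134 that after 75 Gy was -0.48. Without control library 3126, which held 60.1 CPM, they were -1.52 (adjusted p = 0.0223) and -1.13 (adjusted p = 0.0431), and by DESeq2 with all libraries the adjusted p after 65 Gy at 2 weeks was 0.00975. With the 2 groups fitted alone, Aplnr passed after 75 Gy at 6 weeks (-0.69, adjusted p = 0.00078).

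The doses did not differ by the test for any of the 10 genes. Between 75 and 65 Gy the edgeR test called 0 of 10 genes at either week, as did DESeq2. Of all genes tested, 0% passed the adjusted p by edgeR at 2 weeks and 0% at 6 weeks. By DESeq2, 9 were lower and 6 higher of 25402 at 2 weeks, and 7 lower and 10 higher of 22695 at 6 weeks. At an unadjusted p under 0.05 there were 0 genes at 2 weeks and 2 at 6 weeks. Log2 differences at 2 weeks lay between -0.31 (Tek, SE 0.20) and 0.38 (Aplnr, SE 0.38), with 7 of 10 below 0 and a median of -0.15. At 6 weeks 10 of 10 were below 0, with a median of -0.30; the most negative were those of Ptprb (-0.64, SE 0.26, unadjusted p = 0.0236, adjusted p = 0.735) and Cdh5 (-0.49, SE 0.19, unadjusted p = 0.0191, adjusted p = 0.735).

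The effect of time was compared within each dose. The controls of 6 and 2 weeks differed for 0 of 10 genes by edgeR and by DESeq2. By edgeR 0 had an unadjusted p under 0.05, and log2 differences lay between -0.31 (Cldn5) and 0.11 (Cdh5). Of all genes, 1.63% passed the adjusted p by edgeR, and by DESeq2 553 were lower and 399 higher of 20667. The effect of 75 Gy at 6 weeks differed from that at 2 weeks for 0 of 10 genes by both tools. Of all genes, 0.299% passed the adjusted p by edgeR, and by DESeq2 483 were lower and 315 higher of 18638. By edgeR, 2 of the 10 had an unadjusted p under 0.05. These were Ptprb, with a difference of -0.89 (SE 0.33, adjusted p = 0.224), and Cdh5, with -0.65 (SE 0.24, adjusted p = 0.22); the value of Cdh5 was -0.85 with an adjusted p of 0.058 without library 3134. For 65 Gy the difference was called for 0 of 10 genes by both tools, with 0 at an unadjusted p under 0.05 by edgeR. Of all genes, 0.0136% passed the adjusted p by edgeR, and by DESeq2 39 were lower and 72 higher of 21343. The highest value of the 10 was that of Aplnr (0.83, SE 0.57, edgeR adjusted p = 0.677).

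The ratios of the genes to each other also moved. Their level relative to Cdh5 in the same library does not depend on the scaling of libraries, and it is given as a description without a test. The ratio of Ptprb to Cdh5 was lower in each irradiated group, with log2 differences from the controls of -0.43 and -0.40 after 65 and 75 Gy at 2 weeks and of -0.48 and -0.63 at 6 weeks, with no overlap with the controls. That of Tek differed by -0.68 and -0.80 at 2 weeks and by -0.35 and -0.16 at 6 weeks, and overlapped the controls only after 75 Gy at 6 weeks. The ratio of Plvap was lower at 2 weeks (-0.76 after 65 Gy and -0.55 after 75 Gy) and overlapped the controls at 6 weeks (-0.04 and 0.04). The ratio of Pecam1 was higher at 6 weeks, by 0.33 after 65 Gy and 0.62 after 75 Gy, and that of Cd93 by 0.23 and 0.30, in each case without overlap. Those of Aplnr (0.72) and Cldn5 (0.29) were also higher without overlap after 75 Gy at 6 weeks, and overlapped the controls in the other groups. The ratio of Tmem100 was lower without overlap only after 65 Gy (-0.61 and -0.25 at 2 and 6 weeks). A ratio also moves with Cdh5, whose own log2 fold change after 75 Gy at 6 weeks was -1.40. The ratio of Gpihbp1 was -0.69 and -0.36 at 2 weeks after 65 and 75 Gy and 0.21 and 0.60 at 6 weeks; it overlapped the controls after 75 Gy at 2 weeks and after 65 Gy at 6 weeks.

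**Figure D3:**
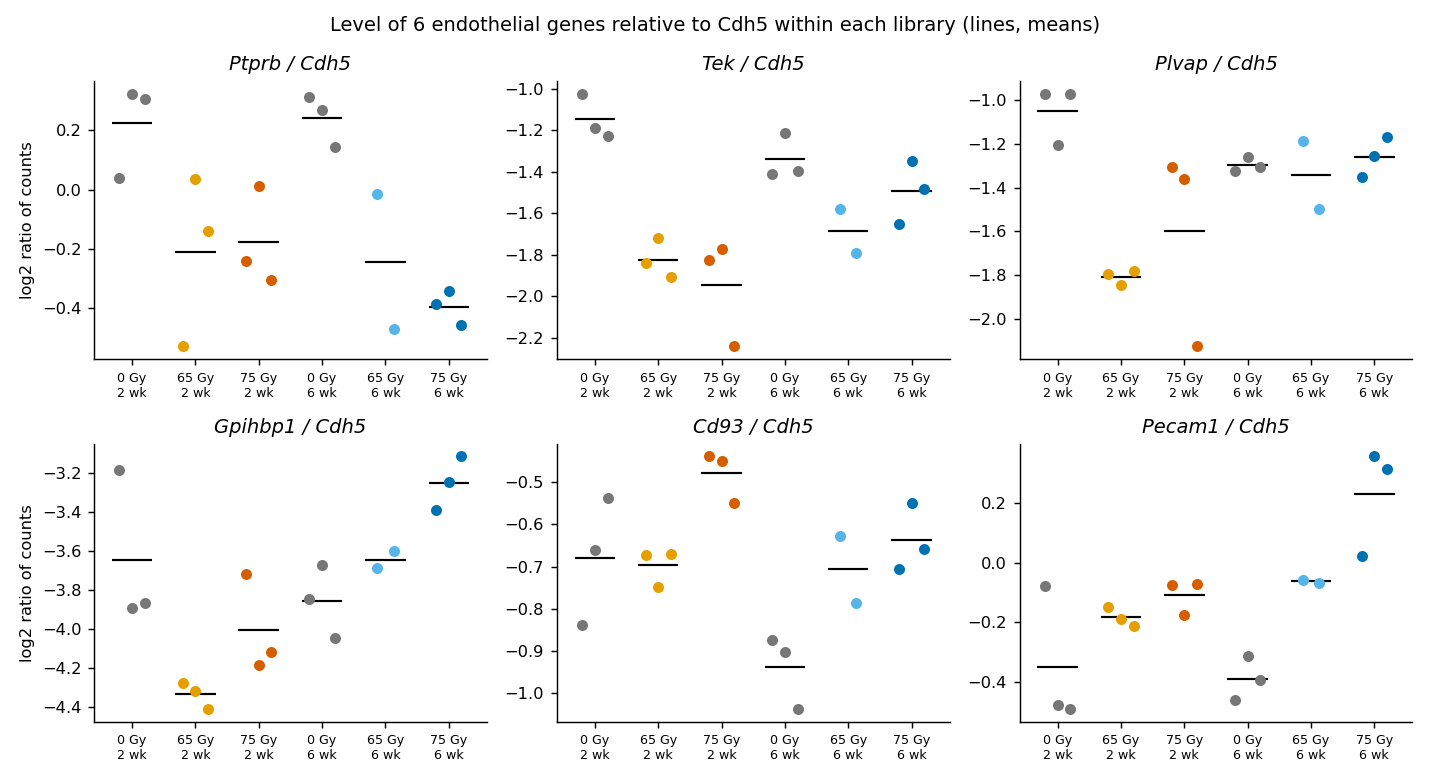
Log2 ratio of the counts of 6 genes to those of Cdh5 in the same library (y axis) by dose and week (x axis); points are libraries and lines are group means. The ratio of Ptprb lies below the controls in all 4 irradiated groups, while that of Pecam1 lies above the controls in both irradiated groups of 6 weeks.

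Levels of different genes can be compared only per length, here as CPM per kilobase of exon (RPKM), with exon lengths from GENCODE, an annotation other than the one used for counting. In the controls of 2 weeks Tmem100 stood highest at 310.4 ± 10.8 RPKM (SD, n = 3), followed by Cldn5 at 262 ± 38.2, Plvap at 253 ± 37.9 and Cdh5 at 248 ± 35.5 RPKM, 3 genes that did not differ beyond their spread. The lowest library of Tmem100 and the highest of Cldn5 were level. Pecam1 (131 ± 3.34 RPKM) stood apart from its neighbours. Tek (99.5 ± 7.24), Cd93 (98.8 ± 23.5) and Ptprb (92.5 ± 21.9) were again not separated, and Gpihbp1 (32.5 ± 4.51) and Aplnr (28.3 ± 14.1 RPKM) were the lowest. In the controls of 6 weeks Tmem100 (304 ± 12.8 RPKM) was followed by Cdh5 (268 ± 9.07), Plvap (231 ± 4.69) and Cldn5 (212 ± 5.91), with Ptprb at 99.9 ± 5.03, Tek at 94.7 ± 4.49 and Cd93 at 88.1 ± 4.18 RPKM. After 75 Gy at 6 weeks Tmem100 was at 121 ± 13.8, Cdh5 at 101 ± 17.4, Cldn5 at 97.5 ± 11.5 and Plvap at 89.3 ± 10.9 RPKM, Pecam1 was at 79.6 ± 3.10 RPKM, and Ptprb, at 24.4 ± 4.30 RPKM, stood below Cd93 (40.9 ± 5.21) and Tek (31.9 ± 2.37).

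The partners of these genes were examined by lists, some of which share a gene. Of the 4 angiopoietin and TIE genes tested beside Tek, Tie1, the co-receptor of TIE2, fell in each comparison, with log2 fold changes of -0.67 and -0.86 at 2 weeks and of -0.89 and -1.30 at 6 weeks after 65 and 75 Gy (adjusted p from 3.99e-05 to 0.0124). The ligand gene Angpt2 fell at 6 weeks (-0.58, adjusted p = 0.0216, and -0.52, adjusted p = 0.00795), and Angpt1 did not pass the test in any comparison (-0.18 to -0.51). Of the 6 partners of VE-cadherin, 4 passed the adjusted p on the lower side after 75 Gy at each week and 3 after 65 Gy at 6 weeks. After 65 Gy at 2 weeks 0 of the 6 passed by edgeR and 1 by DESeq2, with 2 at an unadjusted p under 0.05 and a median of -0.22. Kdr, the main VEGF receptor, fell after 75 Gy at 6 weeks (log2 fold change -1.40, SE 0.17, adjusted p = 5.52e-05). Of the 5 tight junction partners of claudin-5, between 3 and 4 were lower by the adjusted p, led by Tjp1 (ZO-1) with -1.19 (adjusted p = 0.000104) after 75 Gy at 6 weeks. Of 4 genes of caveolae, where PLVAP sits, 3 passed the adjusted p on the lower side after 75 Gy at 6 weeks and 1 in each other comparison. The coat protein gene Cav1 was lower in each comparison (-0.64 to -0.94, adjusted p of at most 0.0243).

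Several genes of the pathway that induces Tmem100 were lower as well. Of 8 genes tested of the BMP9 and ALK1 pathway, 5 passed the adjusted p on the lower side in each of the 4 comparisons. Medians lay between -0.80 and -1.38. The rest did not pass on either side. The highest log2 fold changes of the list were -0.41 after each dose at 2 weeks. At 6 weeks they were 0.39 and 0.25 after 65 and 75 Gy, in each case that of Id3. The level of Id3 was then 86.7, 71.5 and 70.2 CPM in the controls. It was 88.2 and 112 CPM after 65 Gy and 90.0, 76.4 and 104 CPM after 75 Gy. The co-receptor Eng fell, with log2 fold changes of -0.87 and -1.14 at 2 weeks and of -1.06 and -1.46 at 6 weeks after 65 and 75 Gy (adjusted p from 8.41e-05 to 0.00946). Acvrl1, which encodes ALK1, had values of -0.65 and -0.81 at 2 weeks and of -0.89 and -1.30 at 6 weeks (adjusted p from 0.000102 to 0.0269), and Smad9, a transcription factor of the pathway, values of -0.91 to -1.50 (adjusted p from 0.000206 to 0.0169).

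Lipoprotein lipase (Lpl), the partner of GPIHBP1, moved the opposite way. Its level was 225, 151 and 172 CPM in the controls of 2 weeks, 276, 306 and 289 CPM after 65 Gy and 314, 330.0 and 472 CPM after 75 Gy. After 6 weeks the levels were 183, 153 and 181 CPM in the controls, 489.7 and 552 CPM after 65 Gy and 647, 543 and 570.3 CPM after 75 Gy. All irradiated libraries were above all controls of their week. Lpl rose by 0.67 (adjusted p = 0.0152) and 1.02 (adjusted p = 0.000522) at 2 weeks and by 1.60 (adjusted p = 5.02e-05) and 1.77 (adjusted p = 5.4e-06) at 6 weeks; macrophages and adipocytes also express this gene.

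Ligand genes of APLNR and CD93 moved differently from one another. Apln, the apelin gene, which aerocytes express, was at 52.5 to 68.3 CPM in the controls of 2 weeks and at 75.4 to 104 CPM in the 6 irradiated libraries, a rise of 0.60 (adjusted p = 0.0152) after 65 Gy and 0.56 (adjusted p = 0.0111) after 75 Gy. After 6 weeks it was at 53.9 to 58.7 CPM in the controls and at 28.1 to 43.0 CPM in the 5 irradiated libraries, with log2 fold changes of -0.70 (adjusted p = 0.00189) after 75 Gy and -0.50 (adjusted p = 0.0533) after 65 Gy. Apela, the other ligand gene, had 0 counts in all 6 control libraries, which allows up to 3 counts in each, and between 8 and 28 counts in the 8 irradiated libraries outside 65 Gy at 2 weeks and 0 to 8 in that group. Its mean of 0.344 CPM after 75 Gy at 6 weeks was at least 6.68-fold higher than the floor of the controls, and that of 0.239 CPM at 2 weeks at least 3.93-fold; it did not pass the test after 65 Gy at 2 weeks (adjusted p = 0.0663). Mmrn2, the matrix ligand of CD93, rose at 2 weeks by 0.89 after either dose (SE 0.18, adjusted p = 0.00588 after 65 Gy and 0.00284 after 75 Gy) and was at 0.20 and 0.00 at 6 weeks (adjusted p = 0.549 and 0.993). Igfbp7, the other CD93 ligand gene listed, was at 0.07 and 0.10 at 2 weeks (adjusted p = 0.769 and 0.584) and rose after 75 Gy at 6 weeks by 0.56 (adjusted p = 0.00214).

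Most of the other genes of all endothelium were lower too. Of 34 other pan-endothelial genes, 8 were called lower after 75 Gy at 2 weeks and 21 at 6 weeks, and 2 and 8 after 65 Gy; 24, 29, 18 and 23 passed the adjusted p on the lower side, and 2, 1, 2 and 1 on the higher side. The medians were -0.74 and -1.07 after 75 Gy and -0.54 and -0.76 after 65 Gy. Without library 3134 the 8 calls became 1 (20 by the adjusted p). Cd34 moved the other way, with the highest log2 fold changes of the 34 at 6 weeks (0.53 and 0.56 after 65 and 75 Gy). Its level was then 176, 183 and 181 CPM in the controls. It was 234 and 285 CPM after 65 Gy and 247, 267 and 283 CPM after 75 Gy. Flt1, a VEGF receptor, fell from a mean of 357 CPM to 127 CPM after 75 Gy at 6 weeks (-1.49, SE 0.14, adjusted p = 7.79e-06), and the regulators of small GTPases Arhgef15 and Rasip1 had log2 fold changes of -1.48 and -1.16 there (adjusted p = 2.94e-05 for each). Of 4 other general capillary genes, 3 passed the adjusted p on the lower side after 75 Gy at each week and 2 after 65 Gy, while Lpl, which is one of them, passed on the higher side in each comparison. Their summed level after 75 Gy at 6 weeks (896 to 1027 CPM) overlapped that of the controls (931 to 1003.5 CPM). The receptor Kit fell, with log2 fold changes of -1.30 and -1.37 at 2 weeks and of -1.004 and -1.54 at 6 weeks after 65 and 75 Gy (adjusted p from 6.96e-05 to 0.009), and Glp1r fell likewise, with values of -1.05 to -2.23 (adjusted p from 0.000111 to 0.0329). Of 6 aerocyte genes, 2 and 3 were called lower after 75 Gy at 2 and 6 weeks and 2 and 1 after 65 Gy. Without library 3134 the 2 calls after 75 Gy at 2 weeks became 1.

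Markers of larger vessels also moved. Of 7 arterial genes, 3 and 3 were called lower after 75 Gy at 2 and 6 weeks and 1 and 1 after 65 Gy. Efnb2, an arterial signalling ligand, fell, with log2 fold changes of -1.64 and -1.81 after 75 Gy and of -1.10 and -1.58 after 65 Gy (adjusted p from 3.15e-05 to 0.00352). Dkk2 rose at 6 weeks by 1.70 (adjusted p = 0.00101) and 2.49 (adjusted p = 1.24e-05). Of 6 venous genes, Vwf fell after 75 Gy (-0.76, adjusted p = 0.0205, and -1.33, adjusted p = 0.000428), while Selp, the leukocyte-binding P-selectin that platelets carry too, rose by 1.02 (adjusted p = 0.00111) and 0.94 (adjusted p = 0.00109). Of 6 lymphatic genes, 4 and 5 passed the adjusted p on the lower side after 75 Gy, among them Flt4 (-1.40, adjusted p = 2.55e-05, at 6 weeks). Of the 5 VEGF ligand genes, Vegfa, which alveolar epithelium makes, fell, with log2 fold changes of -0.55 and -0.84 after 65 Gy and of -0.80 and -1.19 after 75 Gy (adjusted p from 0.000111 to 0.0409), and Pgf rose by 0.71 (adjusted p = 0.0193) and 1.04 (adjusted p = 0.00131) after 75 Gy.

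**Figure D4:**
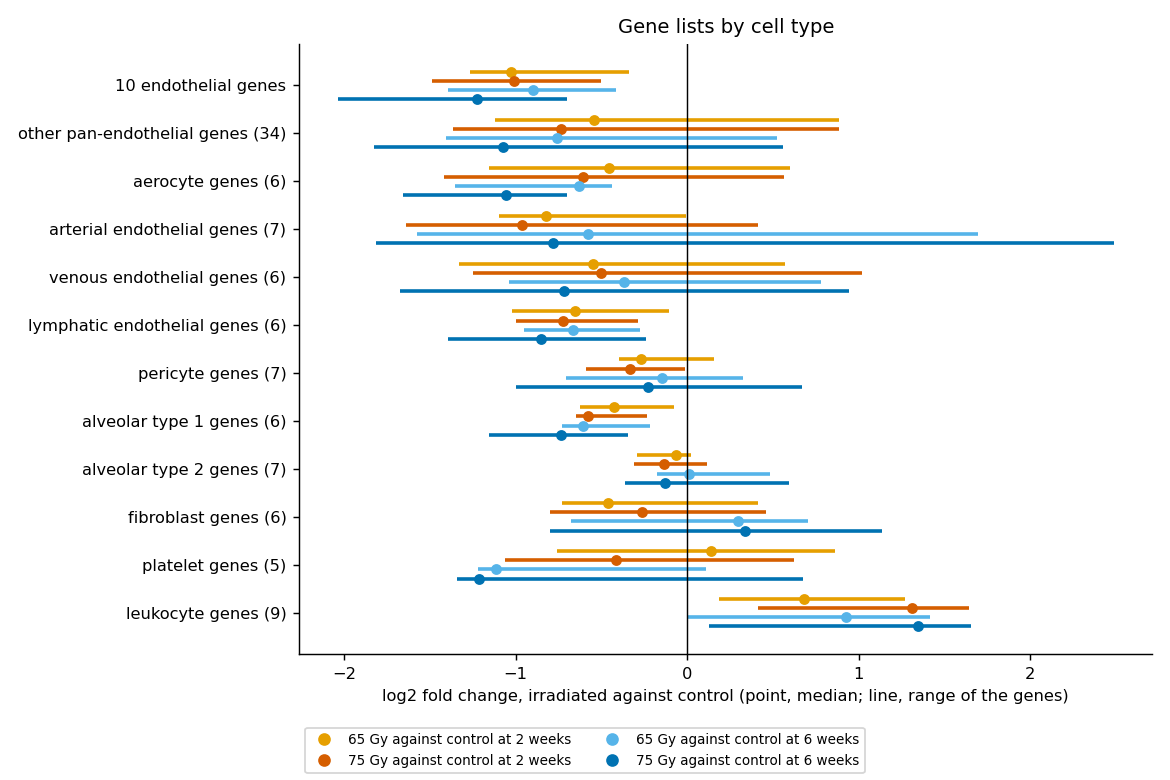
Log2 fold change of irradiated against control libraries (x axis) for gene lists (y axis, number of genes tested in brackets); points are list medians and lines span the genes of a list in each of the 4 comparisons. The medians of all endothelial lists lie below 0, those of alveolar type 2 genes near 0 (-0.13 to 0.01), and those of leukocyte genes above 0.

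Markers of other cell types were measured beside these genes. The summed level of 9 leukocyte genes was 843 to 1132 CPM in the controls of 2 weeks and 901 to 1217 CPM in those of 6 weeks, against 1522 to 1638 and 1709 to 1747 CPM after 65 Gy and 1614 to 2922 and 1900.4 to 1928 CPM after 75 Gy. None of the 9 was at 0 in any library. Of the 9, 7 and 5 were called higher after 75 Gy at 2 and 6 weeks and 3 and 4 after 65 Gy. Over all 22052 genes tested, 1250 and 1606 were called higher after 75 Gy and 766 and 956 after 65 Gy. Library 3134 had the highest leukocyte sum of all, 2922 CPM, together with the lowest sum of the 10 endothelial genes, 1949 CPM against 3487 and 3891 CPM in the other libraries of its group. Without it, 4 of the 9 leukocyte genes were called higher at 2 weeks after 75 Gy. The part of leukocyte RNA in the lower endothelial levels was not tested.

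**Figure D5:**
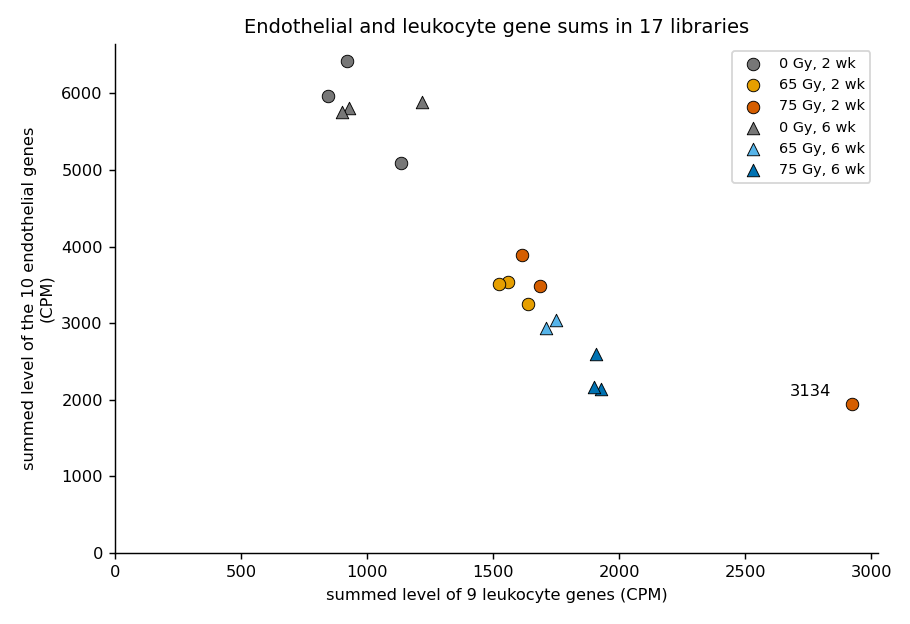
Summed level of the 10 endothelial genes (y axis) against that of 9 leukocyte genes (x axis), both in CPM, in the 17 libraries, with dose and week by colour and shape. The 6 control libraries have endothelial sums of 5089 to 6422 and leukocyte sums of 843 to 1217, and the irradiated libraries have lower endothelial and higher leukocyte sums, library 3134 at the far right.

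Alveolar type 2 genes had summed levels of 15465 to 25497 CPM after 75 Gy at 2 weeks, which overlapped the controls (19193 to 24725 CPM). At 6 weeks the sums after 75 Gy were 20396 to 28212 CPM, the lowest of them just above the controls (18315 to 20302 CPM). The sums give most weight to the strongest genes, and the median log2 fold change of the 7 genes was -0.13 there. After 75 Gy at 6 weeks 1 of the 7 genes passed the adjusted p on the lower side and 2 on the higher side. In the other 3 comparisons 0 passed by edgeR or DESeq2, with 1 lower after 75 Gy at 2 weeks and 1 higher after 65 Gy at 6 weeks at an unadjusted p under 0.05. Alveolar type 1 genes were lower, with medians of -0.43 and -0.61 after 65 Gy and -0.58 and -0.73 after 75 Gy, and 2, 4, 4 and 5 of 6 passed the adjusted p in that order. Of 7 pericyte genes, which mark the cells that wrap capillaries, at most 3 passed the adjusted p on the lower side in any comparison; their medians lay between -0.15 and -0.33. Of 5 platelet genes, 1 and 3 were called lower at 6 weeks after 65 and 75 Gy. On the higher side, 1 passed the adjusted p after 75 Gy at 6 weeks. At 2 weeks 0 passed by edgeR or DESeq2. At an unadjusted p under 0.05, 1 was then higher after 65 Gy and 2 lower after 75 Gy. Of 6 fibroblast genes, 1 was called higher after 75 Gy at 6 weeks, where 2 passed the adjusted p on the higher side. On the lower side, 2 passed the adjusted p after each dose at 2 weeks and 1 after each dose at 6 weeks. Their part in the levels of the 10 genes was not tested.

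The 10 genes varied together over the 17 libraries, which share the large difference between control and irradiated lungs. Pearson's r of log2 CPM was highest between Cdh5 and Ptprb (0.975) and lowest between Aplnr and Cldn5 (0.611). Outside the 10, the genes whose log2 CPM followed the mean of the standardised members most closely were Tspan7 (r = 0.994), Sema3g (0.987), Slc9a3r2 (0.985), Adgre5 (0.984), Hey1 (0.983), Ramp2 (0.982), Dll4 (0.981), Sh3tc2 (0.981), Inpp5a (0.98) and Afap1l1 (0.978). Tspan7 and Sema3g had log2 fold changes of -1.76 and -1.66 after 75 Gy at 6 weeks and of -1.12 and -1.14 after 65 Gy at 2 weeks, each with an adjusted p of at most 0.0142 there.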

How the data were processed

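Paired reads were trimmed (Trimmomatic), mapped (HISAT2, mouse build GRCm38.p6) and quantified (StringTie) by the authors. The values the authors deposited are whole-number counts of reads per gene, without normalization; the step from StringTie to counts is not given in the sources used here, and the kit kept strand. The members and all gene lists were chosen with earlier results of these data known. One edgeR model (version 4.0.16, R 4.3.3) held all 17 libraries and gave each group a coefficient, with TMM factors and filterByExpr (minimum count 10, minimum total 15), which kept 22052 of 45777 genes. Groups were compared by the quasi-likelihood test with Benjamini-Hochberg adjustment over all genes, and standard errors were derived from the F statistic. Calls needed an adjusted p no higher than 0.05 and a log2 fold change of 1 or more in size. DESeq2 1.42.0, other factors and filters, separate fits and fits without each library were the alternatives. Tested on simulated counts for 75 Gy at 2 weeks (21469 genes), the fit recovered 81 of 100 genes changed 2-fold and 100 of 100 changed 4-fold by the adjusted p. The text names all 10 members, up to 3 genes of each other list with the smallest p in a comparison of a dose with its controls, and the 10 genes most correlated with the members. Intervals and floors cover counting error only. The RT-qPCR and imaging of the study were not analysed here. The ratios to Cdh5 were chosen after the data were seen.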

Additional observations from a re-analysis of the deposited data

Results flagged for a closer look

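The effect of 75 Gy differed between 6 and 2 weeks for 4 of the listed genes named here, by the test of that difference (edgeR, adjusted over all genes). Apln, the apelin gene, had a difference of -1.26 on the log2 scale (SE 0.20, adjusted p = 0.0152): it was higher than in the controls in 3 of 3 libraries at 2 weeks and lower in 3 of 3 at 6 weeks. For 65 Gy the difference was -1.10 (adjusted p = 0.12). Dkk2, an arterial gene in the list used here, had a difference of 2.07 (SE 0.35, adjusted p = 0.02), from 1.86 to 2.40 CPM at 2 weeks to 5.77 to 9.31 CPM at 6 weeks. The fibroblast genes Dcn and Lum had differences of 1.60 (SE 0.25, adjusted p = 0.0125) and 1.47 (SE 0.26, adjusted p = 0.0272). Dcn was below the controls at 2 weeks and above them at 6 weeks, with log2 fold changes of -0.78 and 0.83. Without any 1 of the 12 libraries, the adjusted p of the difference was 0.0108 to 0.0392 for Dcn and 0.012 to 0.0515 for Apln (past 0.05 without 1 library), 0.0164 to 0.0706 for Dkk2 (at most 0.05 in 8 of 12 fits) and 0.0247 to 0.0882 for Lum (6 of 12).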

How the results depend on the processing

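Of 10 genes in 4 comparisons of a dose with its controls, none changed sign under any alternative. After 75 Gy at 2 weeks, 8 genes were counted in place of 5 without the fold limit, and 1 (Tek, also the 1 gene passing the adjusted p) when the 2 groups were fitted alone; leaving out 1 library gave 1 to 6, with 1 without library 3134. After 65 Gy at 6 weeks, 7 in place of 2 were counted without the fold limit, and leaving out 1 library gave 1 to 2, with 1 without library 3140; it was 3 by DESeq2 and with the 2 groups fitted alone. After 75 Gy at 6 weeks the count was 7, also on leaving out any library, and 9 without the fold limit. After 65 Gy at 2 weeks it was 4 and lay between 3 and 6, with 5 by DESeq2. The adjusted p alone after 65 Gy was passed by 3 to 7 genes at 2 weeks and 2 to 5 at 6 weeks when 1 library was left out. The call of Tmem100 after 65 Gy at 2 weeks was also lost with upper-quartile factors and without the filter. A fit with 1 library in a group assumes that it varies like the others. In the other 5 comparisons 0 genes passed under any alternative, and 30 of 503 refitted values not given in the text changed sign. Mmrn2 after 75 Gy at 6 weeks, at 0.00, was at -0.0015 with RLE factors and -0.0056 by DESeq2, and at -0.025 to 0.027 when 1 library was left out. Igfbp7 after 65 Gy at 2 weeks, at 0.07, was at -0.029 to 0.118 when 1 library was left out, and below 0 without 3129. No paired analysis was possible because the groups share no replicate number. Of the simulated 2-fold changes after 75 Gy at 2 weeks, 81 of 100 passed the adjusted p and 42 of 100 were called at both limits. These changes lay at the fold limit itself, so the count at both limits says little about the number of libraries. With 2 or 3 libraries a group, a gene with no call is not shown to be unchanged.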
